A study of Mus musculus with 54 samples.

Results

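The proteasome subunit genes were taken as the rows of the count table named Psma, Psmb, Psmc, Psmd or Psme plus a number, without Psmb8, Psmb9 and Psmb10, which encode the catalytic subunits of the immunoproteasome. This gave 40 genes of 24421 in the table: 8 of the core's alpha ring, 8 of its beta ring, 6 ATPases of the cap's base, 3 scaffold and receptor subunits of that base, 8 of the cap's lid, 3 chaperones of cap assembly and 4 alternative activators. Of these, 39 had enough counts to be tested. Psmb11, the beta subunit of the thymus, had 4 counts in 1 library and 0 in the other 53 libraries.

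Hematopoietic stem cells (HSC) came from the bone marrow of Fgd5 reporter mice on a C57BL/6 background, whose HSC carry the green fluorescent protein ZsGreen, and were sorted by SLAM and LSK surface markers together with that fluorescence. The groups were irradiated HSC with dmPGE2 at 1 h (8 libraries) and 24 h (8), irradiated HSC with vehicle at 1 h (8) and 24 h (8), unirradiated HSC with dmPGE2 at 1 h (7), and unirradiated HSC with vehicle (15, both times pooled). dmPGE2 is a long-acting analogue of prostaglandin E2. It or its ethanol vehicle was injected under the skin once, 30 min before irradiation at 8.53 Gy, the dose lethal to 50% of mice. The dmPGE2 amount is uncertain, because the labels give it as 35 µg but also as 3.5 µL at 0.1 mg/ml, which is less. The design text gives 7 or 8 mice per group; p values below measure the spread between libraries. The control libraries carry the reporter too.

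The proteasome degrades proteins that carry ubiquitin chains. Its core is a stack of alpha and beta rings, and 3 beta subunits hold the protease sites: Psmb5 cuts after hydrophobic, Psmb6 after acidic and Psmb7 after basic residues. The regulatory cap has a base, whose ATPases (Psmc genes) unfold the substrate and push it into the core, and a lid, in which Psmd14 removes the ubiquitin chain. Psme1 and Psme2 (PA28 alpha and beta), Psme3 (PA28 gamma) and Psme4 (PA200) open the core without that cap. In mammalian cells the transcription factor Nfe2l1 is known to raise subunit genes together when proteasome activity falls, and protein synthesis and breakdown are known to be kept low in resting HSC.

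Several facts about the libraries bear on these results. Total counts were 17371333 to 26217041 per library in the irradiated groups, 19963860 to 22976367 in the unirradiated dmPGE2 group and 15049364 to 25278219 in the unirradiated vehicle group. Columns of the 24 h groups name no radiation and those of the irradiated 1 h groups no time; they were matched to the group with as many samples, and for 24 h vehicle with 4 of each sex, in the labels. The 15 unirradiated vehicle columns name no time either. They were numbered S79 to S85 (7 columns) and S42 to S70 (8), and each of the 7 carries the same tag, of a kind that recurs across groups, as 1 of the 8. After each range's mean was removed, each of the 7 correlated best with the column of its own tag across genes (r of 0.20 to 0.46, against at most 0.16 with any other). Their counts differed by more than sampling noise, with a chi-square per degree of freedom of 18.6 to 42.8 within tags and 22.2 to 86.3 between tags, where noise alone gives about 1. Sex by Xist and Y-linked genes was the same within each of these pairs. Summed neutrophil markers were 590.3, 398.5, 1396, 127.7, 390.6, 220.7 and 188.1 CPM in the 7 columns. In the columns of the same tags, in that order, they were 552.4, 420.7, 1317, 144.8, 344.4, 218.7 and 181.6 CPM. The labels do not say whether such pairs come from 1 animal, and this was not tested. The 15 unirradiated vehicle columns may thus not be independent. SE and p values that count them as 15 libraries may then be too small. Counts of Xist and Y-linked genes gave 5 female and 10 male libraries in that group, where the labels give 7 and 8. Columns of 1 h were numbered S42 to S72 and those of 24 h S79 to S101, so that column number and time cannot be told apart in the irradiated groups. Between the S79 to S85 and the S42 to S70 unirradiated columns, 2 subunits were higher (1.25% of all genes were) and 1 was lower (1.40% of all genes were), with a member median of 0.12 on the log2 scale: Psma3 differed by 0.32, Psmb2 by 0.28 and Psme4 by -0.71. Of the 8 irradiated dmPGE2 libraries at 24 h, numbers 5, 6 and 7, all male, stood apart and are treated below.

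Levels within a gene are given in CPM, its counts per library scaled to a common library size. SE is the standard error of a log2 fold change. Calls use edgeR's quasi-likelihood test with an adjusted p below 0.05, over 14320 genes. Across genes, levels were compared as CPM per kilobase of annotated exon. In unirradiated vehicle HSC the highest was Psme1 with 376 ± 41.2 CPM per kb (SD, n = 15), then Psmb2 with 341 ± 41.2, Psma6 with 307 ± 38.0, Psma2 with 304 ± 26.9 and Psmb6 with 295 ± 26.7. Neighbours in this order differed by less than their SD. The lowest were Psmd9 with 18.8 ± 1.19, Psma8, the alpha subunit known from testis, with 12.9 ± 1.76, and Psme4 with 6.60 ± 1.95 CPM per kb. The median level was 209 CPM per kb in the alpha ring, 239 in the beta ring, 117 for the ATPases, 117 for the scaffold and receptor subunits, 107 in the lid, 42.2 for the chaperones and 153 for the activators. The core rings thus stood above the cap in transcript level. The order of the 39 genes was nearly the same in all groups: Spearman's rho with the unirradiated vehicle group was 0.975 to 0.992 across genes, which share the same libraries.

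**Figure D1:**
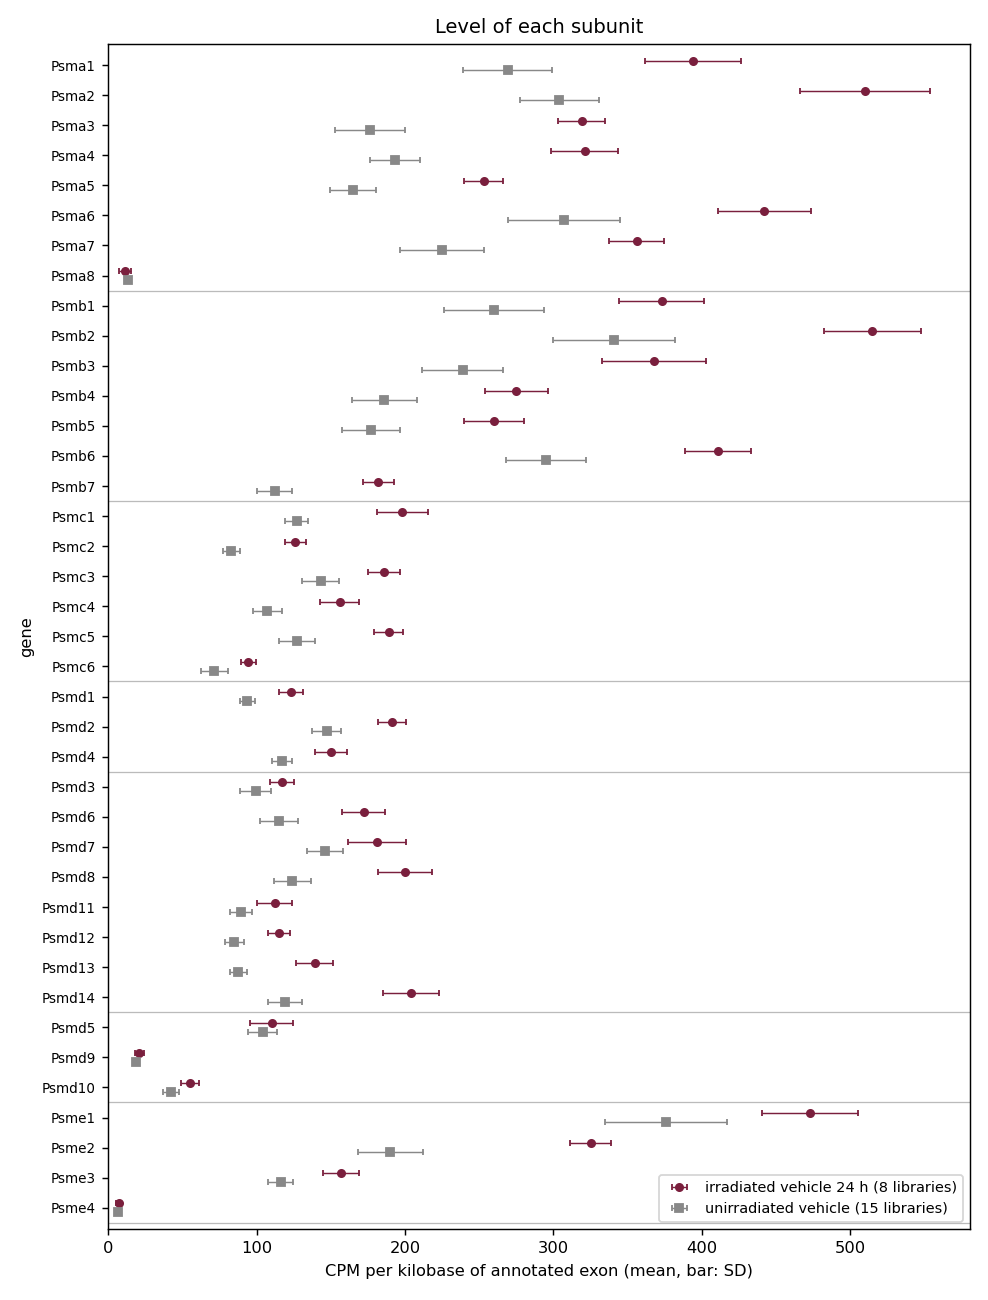
Level of each of the 39 tested subunits in CPM per kilobase of annotated exon (x axis; mean, bars are SD) in irradiated vehicle HSC at 24 h (circles, 8 libraries) and unirradiated vehicle HSC (squares, 15 libraries), by subcomplex down the page. Core subunits reach from 12.9 (Psma8) to 341 (Psmb2) CPM per kb in unirradiated HSC, and Psme4 is lowest at 6.60.

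At 24 h after radiation with vehicle, subunit transcripts were higher across the whole particle. Radiation at 24 h raised 35 of the 39 tested subunits and lowered 0, where 23.3% of all genes tested were called higher. The member median was 0.55 on the log2 scale, against -0.06 for all genes. In 30 subunits every irradiated library was above every unirradiated one, which holds for 7.37% of all genes. The summed level of the 39 subunits was 11010 to 12129 CPM in the 8 irradiated vehicle libraries at 24 h and 7128 to 8853 CPM in the 15 unirradiated ones. In bulk RNA, fewer cells of a type and less RNA per cell cannot be told apart.

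The alpha ring had the highest median log2 fold change of the subcomplexes, 0.64. Between the unirradiated column ranges, S79 to S85 over S42 to S70, medians were 0.19 in the alpha and 0.22 in the beta ring. In the other subcomplexes they were -0.01 to 0.08, so this order may depend on the unirradiated columns used. Psma3 ranged from 420 to 495 CPM (median 451) in irradiated vehicle HSC at 24 h, against 207 to 310 CPM (median 243) in unirradiated vehicle HSC, and its log2 fold change was 0.86 (SE 0.07, adjusted p = 6.46e-15). Every irradiated library lay above every unirradiated one. Psma2 gave 442 to 559 CPM (median 470) in irradiated and 254 to 331 CPM (median 290) in unirradiated HSC, and its log2 fold change was 0.75 (SE 0.06, adjusted p = 3.01e-15). Psma4 gave 311 to 381 CPM (median 352) in irradiated and 188 to 252 CPM (median 211) in unirradiated HSC, and its log2 fold change was 0.73 (SE 0.07, adjusted p = 9.02e-13). The groups did not overlap in either gene. Of the 8 alpha genes, 7 rose, by 0.52 to 0.86, and Psma8 had -0.19 (SE 0.17, adjusted p = 0.361).

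All 7 tested beta genes rose, by 0.48 to 0.70 on the log2 scale, and none overlapped between the groups. Among the catalytic ones, Psmb7 had 158 to 188 CPM (median 177) in irradiated vehicle HSC at 24 h and 87.3 to 127 CPM (median 108) in unirradiated vehicle HSC, and its log2 fold change was 0.70 (SE 0.07, adjusted p = 6.53e-13). Psmb5 averaged 226 ± 17.4 CPM (SD, n = 8; median 229, highest 259) in irradiated and 154 ± 17.1 CPM (SD, n = 15; median 150, highest 182) in unirradiated HSC, and its log2 fold change was 0.55 (SE 0.07, adjusted p = 2.70e-09). Psmb6 had 377 to 455 CPM (median 431) in irradiated and 268 to 362 CPM (median 306) in unirradiated HSC, and its log2 fold change was 0.48 (SE 0.06, adjusted p = 4.07e-10). Transcripts for all 3 protease sites were thus higher.

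In the cap all 6 ATPases (0.37 to 0.64), all 3 scaffold and receptor genes (0.35 to 0.39) and all 8 lid genes (0.23 to 0.78) rose. Psmd14, the lid deubiquitinase, ranged from 280 to 356 CPM (median 310) in irradiated vehicle HSC at 24 h and from 153 to 218 CPM (median 188) in unirradiated vehicle HSC, without overlap, and its log2 fold change was 0.78 (SE 0.08, adjusted p = 1.57e-11). Psmd11, another lid subunit, overlapped between the groups, with 161 to 230 CPM (median 190) in irradiated and 139 to 181 CPM (median 155) in unirradiated HSC, and rose by 0.32 (SE 0.06, adjusted p = 7.44e-06). Of the 3 chaperones, which help build the base and leave the finished particle, Psmd10 rose by 0.39 (SE 0.08). Psmd9 had 0.14 (SE 0.07, adjusted p = 0.105) and Psmd5 0.09 (SE 0.08, adjusted p = 0.348).

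The activators were uneven. Psme2 ranged from 298 to 338 CPM (median 315) in irradiated vehicle HSC at 24 h and from 155 to 226 CPM (median 180) in unirradiated vehicle HSC, without overlap, and its log2 fold change was 0.78 (SE 0.09, adjusted p = 1.03e-10). Its near copy Psme2b, at 6.96 ± 0.607 CPM in irradiated (SD, n = 8) and 5.25 ± 0.759 CPM in unirradiated HSC (n = 15), could share reads with it, so the Psme2 value carries that uncertainty. Psme3 rose by 0.44 (SE 0.09), and Psme1, the partner of Psme2, by 0.33 (SE 0.07) with overlapping groups. Psme4 had 33.2 to 66.1 CPM (median 42.7) in irradiated and 26.3 to 68.8 CPM (median 41.2) in unirradiated HSC, and 0.07 (SE 0.14, adjusted p = 0.702). Psme4 was the subunit in which the unirradiated columns themselves differed most: against the 7 columns S79 to S85 alone its log2 fold change was 0.49 (SE 0.13, adjusted p = 0.00238).

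With those 7 columns as the only unirradiated ones, 35 subunits were again higher, where 2790 of 14320 genes were. Of the 35, 34 were shared with the full comparison, and the median was 0.45. Psma3 then had 0.70 (SE 0.08) and Psmd14 0.73 (SE 0.10). With same-tag columns summed 35 subunits were higher, where 2969 of 14196 genes were, and the median was 0.55.

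**Figure D2:**
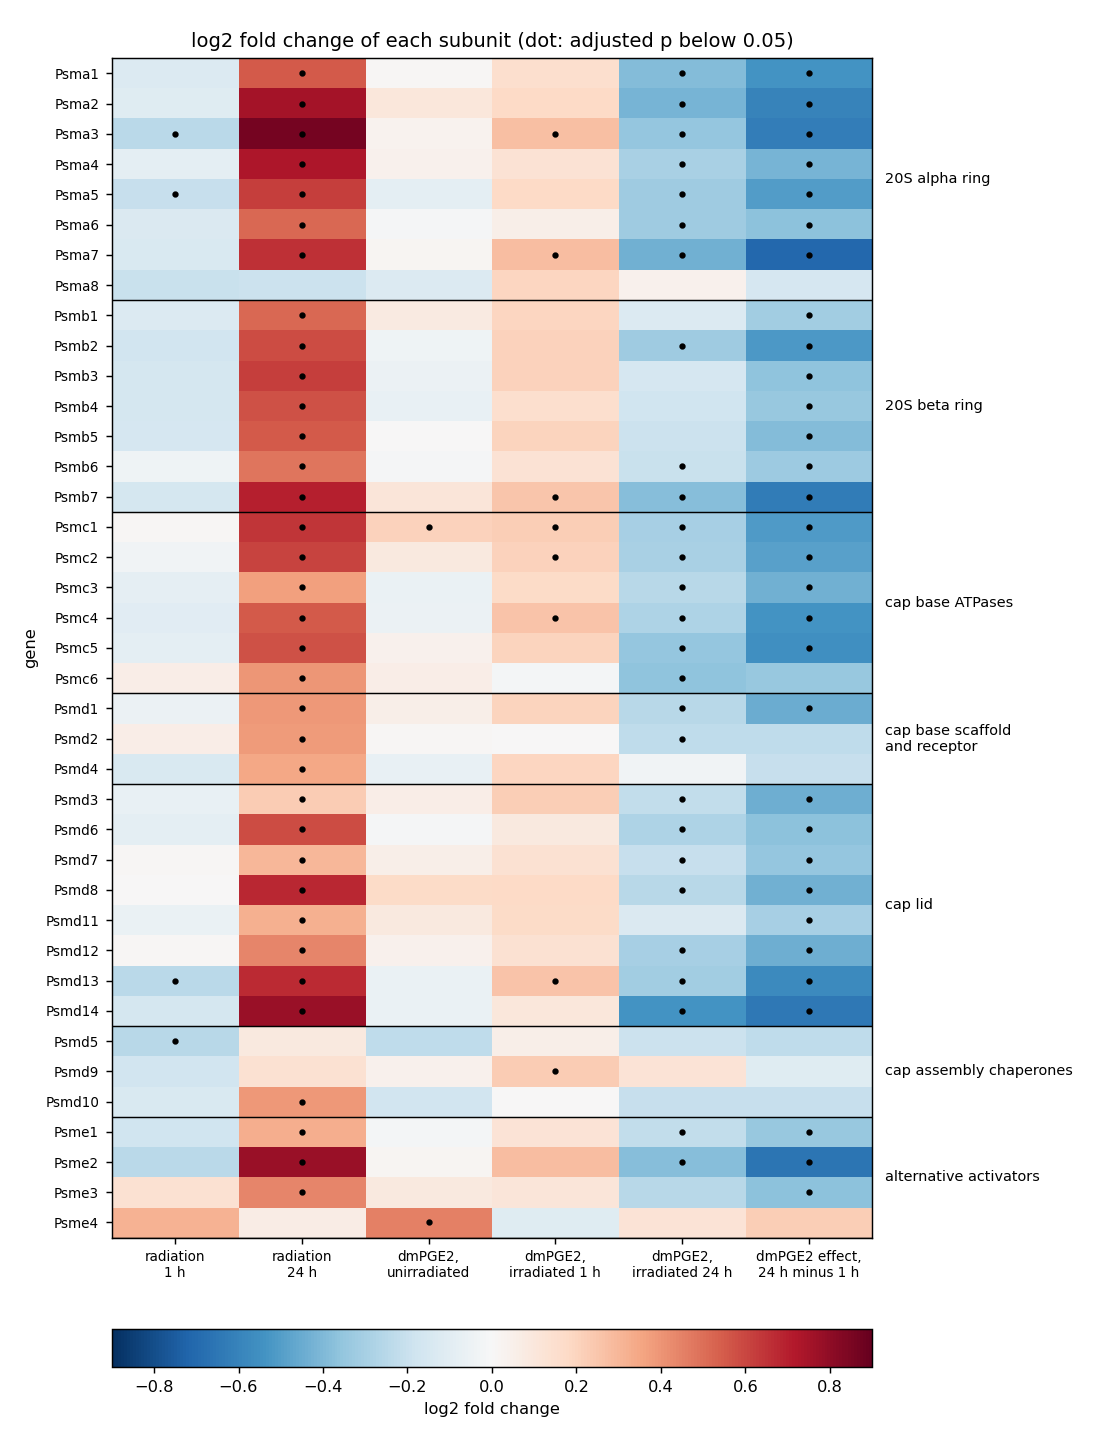
Log2 fold change (colour) of each tested subunit (rows, by subcomplex) in 6 comparisons (columns); a dot marks an adjusted p below 0.05. Radiation at 24 h is red in 38 of 39 rows with 35 dots, dmPGE2 in irradiated HSC at 24 h is blue in 36 rows with 27 dots, and dmPGE2 without radiation has 2 dots.

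Since Nfe2l1 and Nfe2l2 bind the antioxidant response element (ARE) together with a small Maf protein, and many subunit genes moved together, the promoters were read for its core, TGACNNNGC, or GCNNNGTCA on the other strand. Windows of 300 bases, from 250 before to 50 after the annotated start, were read for 33 of the 40 genes (RefSeq, GRCm38.p6, 36 windows). The core was in 6 of 33 genes (18.2%), against 14% of 27025 mouse genes: Psmb5, Psmb6, Psmc6, Psmd9, Psmd12 and Psme4. The log2 fold change of radiation at 24 h was 0.07 to 0.55 (median 0.42) in these 6 and 0.09 to 0.86 (median 0.58) in the 26 other tested genes with a window. CCAAT, the letters of the NF-Y box (ATTGG on the other strand), was in 13 of 33 (39.4%) on either strand, against 41.1% of all genes. No gene among the 33 held both motifs. Psmb5 and Psmb6, both protease subunits, are shown with the ARE core in capitals. Psma3 and Psmd14, which moved most in the rings and the lid and hold no ARE core in these windows, are shown with CCAAT or its reverse complement in capitals. Psmb5 is on the minus strand at chr14:54617946-54618245, Psmb6 on the plus strand at chr11:70525107-70525406, Psma3 on the plus strand at chr12:70974373-70974672 and Psmd14 on the plus strand at chr2:61711444-61711743. Each is printed 5′ to 3′ in the direction of its gene.
Psmb5: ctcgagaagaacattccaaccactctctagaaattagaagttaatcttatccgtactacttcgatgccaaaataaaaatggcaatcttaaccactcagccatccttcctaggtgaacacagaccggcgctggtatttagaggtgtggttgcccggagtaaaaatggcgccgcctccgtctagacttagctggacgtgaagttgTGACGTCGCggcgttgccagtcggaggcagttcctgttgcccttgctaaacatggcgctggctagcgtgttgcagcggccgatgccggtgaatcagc
Psmb6: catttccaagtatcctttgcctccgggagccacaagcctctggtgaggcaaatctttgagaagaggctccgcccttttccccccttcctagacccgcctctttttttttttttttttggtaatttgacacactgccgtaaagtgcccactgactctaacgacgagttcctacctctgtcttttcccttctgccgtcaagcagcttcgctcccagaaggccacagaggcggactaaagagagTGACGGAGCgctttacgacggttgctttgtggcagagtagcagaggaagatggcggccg
Psma3: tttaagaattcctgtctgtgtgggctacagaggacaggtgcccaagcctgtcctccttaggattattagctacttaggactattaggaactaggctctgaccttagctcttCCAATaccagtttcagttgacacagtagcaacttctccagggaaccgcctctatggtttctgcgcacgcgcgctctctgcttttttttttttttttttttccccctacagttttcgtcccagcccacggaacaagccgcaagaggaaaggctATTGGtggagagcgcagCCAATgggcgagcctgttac
Psmd14: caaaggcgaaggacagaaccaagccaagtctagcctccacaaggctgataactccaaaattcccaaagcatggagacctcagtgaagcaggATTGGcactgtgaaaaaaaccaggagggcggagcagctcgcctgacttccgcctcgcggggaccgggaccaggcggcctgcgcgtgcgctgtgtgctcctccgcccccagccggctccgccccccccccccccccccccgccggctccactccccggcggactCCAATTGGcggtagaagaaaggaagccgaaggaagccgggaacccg

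In Psmb5 the core begins 47 bases before the annotated start and in Psmb6 9 bases before it. In Psma3 and Psmd14 there are 3 matches each, and a pair of those in Psmd14 overlap in CCAATTGG. A match describes letters in the window and not binding. The other genes with CCAAT were Psma1, Psma2, Psma6, Psma7, Psmb3, Psmb11, Psmc1, Psmc2, Psmd4, Psmd10 and Psme3. Psmd4 and Psmd10 held 3 matches each and rose by 0.35 and 0.39 with radiation at 24 h, while Psme2 (0.78) and Psma4 (0.73) held 0. No window was read for Psma8, Psmb1, Psmb2, Psmb7, Psmc3, Psmd3 and Psmd7. Subunit windows on chromosome 18, which holds Psma8, were left out, while those of other genes there were kept. Psmb5 shares 109 exon bases with the same-strand Mir686, and Psma4 (45 bases, AY074887) and Psme1 (4 bases, Emc9) overlap genes of the opposite strand, whose reads cannot be told apart from theirs in unstranded libraries.

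Of the other genes of the pathway, 3 lists are given for the same comparison. The 3 immunoproteasome subunits rose by 0.43 (Psmb8, SE 0.06), 0.32 (Psmb10, SE 0.08) and 0.30 (Psmb9, SE 0.08). All 5 chaperones of core assembly rose: Pomp by 0.56, Psmg4 by 0.53, Psmg1 by 0.45, Psmg3 by 0.45 and Psmg2 by 0.27. Of 9 proteasome-associated genes 5 rose and 1 fell. The deubiquitinases Usp14 (0.74) and Uchl5 (0.55), the small lid component Shfm1 (0.70), the associated thioredoxin Txnl1 (0.54) and the ubiquitin receptor Adrm1 (0.37) were higher, and Psmf1, an inhibitor of the core in vitro, fell by 0.20 on the log2 scale. Against the 7 columns S79 to S85 alone Psmb10 and Psmg2 were not called, and with same-tag columns summed Psmg2 was not.

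Cell markers moved with radiation at 24 h as well, where 23.3% of all genes were called higher and 26.5% lower. The 9 HSC markers, all detected, summed to 2415 to 3378 CPM in irradiated vehicle HSC at 24 h and 3593 to 5188 CPM in unirradiated vehicle HSC, with 1 called higher and 6 called lower. Megakaryocyte markers summed to 703 to 1548 CPM in irradiated and 233 to 442 CPM in unirradiated HSC (3 of 4 higher), and T and NK cell markers to 93.1 to 193.7 CPM in irradiated and 34.2 to 106.1 CPM in unirradiated HSC (2 of 5 higher). Lower sums in irradiated HSC were seen for erythroid (2.06 to 6.48 CPM, against 23.1 to 200.5 in unirradiated HSC, with the globin genes Hba-a1 and Hbb-bs at no more than 3 counts in any library), dendritic (3.94 to 10.99 CPM, against 29.7 to 68.6 in unirradiated HSC) and endothelial markers (73.5 to 87.5 CPM, against 88.5 to 136.2 in unirradiated HSC). Stromal markers gave 2.26 to 26.9 CPM in irradiated and 26.5 to 69.3 CPM in unirradiated HSC, and monocyte markers 584 to 799 CPM in irradiated and 611 to 911 CPM in unirradiated HSC. Mast cell markers gave 0.722 to 13.2 CPM in irradiated and 2.31 to 167.6 CPM in unirradiated HSC, and B cell markers at most 1.92 CPM in irradiated and 4.85 CPM in unirradiated HSC. Neutrophil marker sums overlapped, at 8.77 to 454.6 CPM in irradiated and 127.7 to 1396 CPM in unirradiated HSC. DNA replication genes had a mean log2 CPM of 7.73 to 8.02 in irradiated and 7.07 to 7.62 in unirradiated HSC, and 8 of 14 rose. Their part in the subunit result was not tested.

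Within irradiated vehicle HSC, 37 subunits were higher at 24 h than at 1 h, where 23.4% of all genes were, with a median of 0.64 (-0.06 for all genes). In 29 subunits the groups did not overlap, which holds for 11.0% of all genes. Psma3 had 420 to 495 CPM at 24 h and 185 to 251 CPM at 1 h, and its log2 fold change was 1.11 (SE 0.09, adjusted p = 4.64e-16). Psme2 followed with 1.02 (SE 0.10), Psmd14 with 0.93 (SE 0.10), Psmd13 with 0.91 (SE 0.09) and Psmb7 with 0.86 (SE 0.08). The exceptions were Psma8 (0.02, SE 0.19) and Psme4 (-0.24, SE 0.15). With the difference between the unirradiated column ranges subtracted, 32 were called, where 1969 of 14320 genes were higher, and the median was 0.47. This comparison shares its 24 h libraries with the one above. Markers moved between these times as well: at 24 h 4 of 4 megakaryocyte markers, 2 of 5 T and NK cell markers and 8 of 14 replication genes were higher, and 6 of 8 neutrophil, 3 of 3 tested erythroid, 3 of 4 endothelial, 2 of 3 dendritic, 2 of 4 stromal, 2 of 3 tested B cell, 2 of 2 tested mast cell and 1 of 5 monocyte markers were lower. Of 9 HSC markers 1 was higher and 4 were lower. Over all genes 23.4% were higher and 3944 of 14320 were lower, so 1 of 5 monocyte markers is not above that share. Megakaryocyte markers summed to 703 to 1548 CPM at 24 h and 229 to 486.8 CPM at 1 h. Their part in the subunit result was not tested.

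At 1 h after radiation 32 of the 39 subunits had a negative log2 fold change, by small amounts. Radiation at 1 h lowered 4 of the 39 and raised 0, where 7.31% of all genes were called lower, and the median was -0.12 (0.00 for all genes). These were Psmd5 (-0.25, SE 0.08, adjusted p = 0.0209), Psma3 (-0.24, SE 0.07, adjusted p = 0.0161), Psmd13 (-0.24, SE 0.08, adjusted p = 0.0369) and Psma5 (-0.21, SE 0.07, adjusted p = 0.0321). Psma3 ranged from 185 to 251 CPM (median 205) in irradiated vehicle HSC at 1 h and from 207 to 310 CPM (median 243) in unirradiated vehicle HSC, so the groups overlapped. Psmd5 ranged from 153 to 198 CPM (median 177) in irradiated and from 175 to 243 CPM (median 211) in unirradiated HSC, again with overlap. The calls rested on the choice of unirradiated columns: with same-tag columns summed 1 was left (Psma3), and against the 8 columns S42 to S70 alone 0 were called and the median was -0.03. The share of 4 in 39 is near the background.

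Subunits picked for their role had small values at 1 h: Psmb5 had -0.15 (SE 0.07), Psmb6 -0.04 (SE 0.06), Psmb7 -0.16 (SE 0.07), Psmd14 -0.16 (SE 0.08), Psmd11 -0.06 (SE 0.06), Psme1 -0.18 (SE 0.07), Psme2 -0.24 (SE 0.09), Psme3 0.14 (SE 0.09) and Psme4 0.31 (SE 0.13), with adjusted p of 0.0618 or more. Of the pathway's other lists, all 3 immunoproteasome genes fell (Psmb10 -0.31, Psmb8 -0.26, Psmb9 -0.22) and 3 of 5 assembly chaperones fell (Psmg2 -0.37, Psmg3 -0.28, Pomp -0.20). Of the associated genes 1 of 9 fell (Psmf1, -0.21). These calls too rested on the unirradiated columns: against the 8 columns S42 to S70 alone 0 genes of the 3 lists were called, and the median was -0.18 for the immunoproteasome and -0.11 for the assembly genes.

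With dmPGE2 in irradiated HSC, subunit calls were all downward at 24 h and all upward, but few, at 1 h, and the difference between the times was tested directly. At 24 h dmPGE2 lowered 27 of 39 subunits and raised 0, where 11.5% of all genes were lower, with a median of -0.25 (0.03 for all genes). With these 2 groups fitted alone 14 were lower, where 5.96% of all genes were. In 7 subunits the groups did not overlap, which holds in that direction for 1.28% of all genes. Radiation at 24 h and dmPGE2 at 24 h share the 8 irradiated vehicle libraries, so the opposite signs of these values are not independent. Calls covered 6 of 6 ATPases, 7 of 8 alpha genes, 7 of 8 lid genes, 2 of 3 scaffold and receptor genes, 2 of 4 activators, 3 of 7 beta genes and 0 of 3 chaperones.

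Psmd14 ranged from 156 to 268 CPM (median 219) in irradiated dmPGE2 HSC at 24 h and from 280 to 356 CPM (median 310) in irradiated vehicle HSC at 24 h, and its log2 fold change was -0.54 (SE 0.10, adjusted p = 4.06e-05). Every dmPGE2 library was below every vehicle library. Psma2 had 274 to 401 CPM (median 376) with dmPGE2 and 442 to 559 CPM (median 470) with vehicle, also without overlap, and -0.42 (SE 0.07, adjusted p = 2.03e-05). Psma7 gave -0.43 (SE 0.10), Psma1 -0.39 (SE 0.08) and Psme2 -0.38 (SE 0.10), each with overlap. Of the protease subunits, Psmb7 fell to 98.8 to 154 CPM with dmPGE2, against 158 to 188 CPM with vehicle (-0.38, SE 0.08, adjusted p = 0.00029), and Psmb6 had -0.20 (SE 0.07, adjusted p = 0.0217), while Psmb5 had -0.19 (SE 0.08, adjusted p = 0.074) and was not called. Psme1 was at -0.22 (SE 0.08, adjusted p = 0.0339). Psmd11 (-0.13, SE 0.07), Psme3 (-0.25, SE 0.10) and Psme4 (0.12, SE 0.15) were not called.

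The difference was smaller without 3 libraries. The member mean log2 CPM was 7.61, 7.39 and 7.52 in dmPGE2 libraries 5, 6 and 7 and 7.71 to 7.90 in the other 5, against 7.86 to 8.04 in the 8 vehicle libraries. The same 3 had the lowest mean log2 CPM of the replication genes, at 6.44, 6.26 and 6.32, where the other dmPGE2 libraries had 7.16 to 7.79 and the vehicle libraries 7.73 to 8.02. Over all 8, 13 of 14 replication genes were lower with dmPGE2. Without those 3 libraries 4 subunits were lower (Psma2, Psmb7, Psmc2 and Psmd14), where 3.78% of all genes were, and the median was -0.15. Psmd14 then had -0.35 (SE 0.09, adjusted p = 0.0124) and Psma7 -0.22 (SE 0.09, adjusted p = 0.119). Without library 3 as well, 2 were lower (Psma2 and Psmd14), where 2.46% of all genes were; that share is near the background. Whether the replication genes bear on the subunit difference was not tested.

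Male minus female was compared over the 16 irradiated libraries of 24 h with treatment in the model, since the 3 libraries are male. The edgeR test called 0 of 39 subunits, where 0.0932% of the 12876 genes tested there were called. An unadjusted p below 0.05 was found in 14 subunits and in 2064 of those genes, and the member median was -0.14. No other tool was run for this. The member mean was 7.39 to 7.81 in male and 7.71 to 7.90 in female dmPGE2 libraries, and 7.86 to 7.99 in male and 7.94 to 8.04 in female vehicle libraries.

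Marker sums moved with dmPGE2 at 24 h too, where 1781 of 14320 genes were called higher and 1640 lower. HSC markers were at 3283 to 4984 CPM with dmPGE2 and 2415 to 3378 CPM with vehicle (4 of 9 higher), megakaryocyte markers at 206 to 851 CPM with dmPGE2 and 703 to 1548 CPM with vehicle (3 of 4 lower), and neutrophil markers at 11.5 to 613 CPM with dmPGE2 and 8.77 to 454.6 CPM with vehicle (2 of 8 higher). T and NK cell markers were at 39.5 to 96.1 CPM with dmPGE2 and 93.1 to 193.7 CPM with vehicle (1 of 5 lower). Dendritic markers were at 8.29 to 165.8 CPM with dmPGE2 and 3.94 to 10.99 CPM with vehicle (2 of 3 higher), and stromal markers at 17.2 to 216.9 CPM with dmPGE2 and 2.26 to 26.9 CPM with vehicle (3 of 4 higher). Libraries 5 to 7 stood apart in some of these sums. They had 97.55 to 165.8 CPM of dendritic markers, against 8.29 to 28.94 in the other 5 dmPGE2 libraries. HSC markers were at 4415 to 4984 CPM in those 3 and 3283 to 3843 CPM in the other 5, and endothelial markers at 127.3 to 138.3 CPM in those 3 and 77.36 to 92.56 CPM in the other 5. Their part in the subunit result was not tested.

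**Figure D3:**
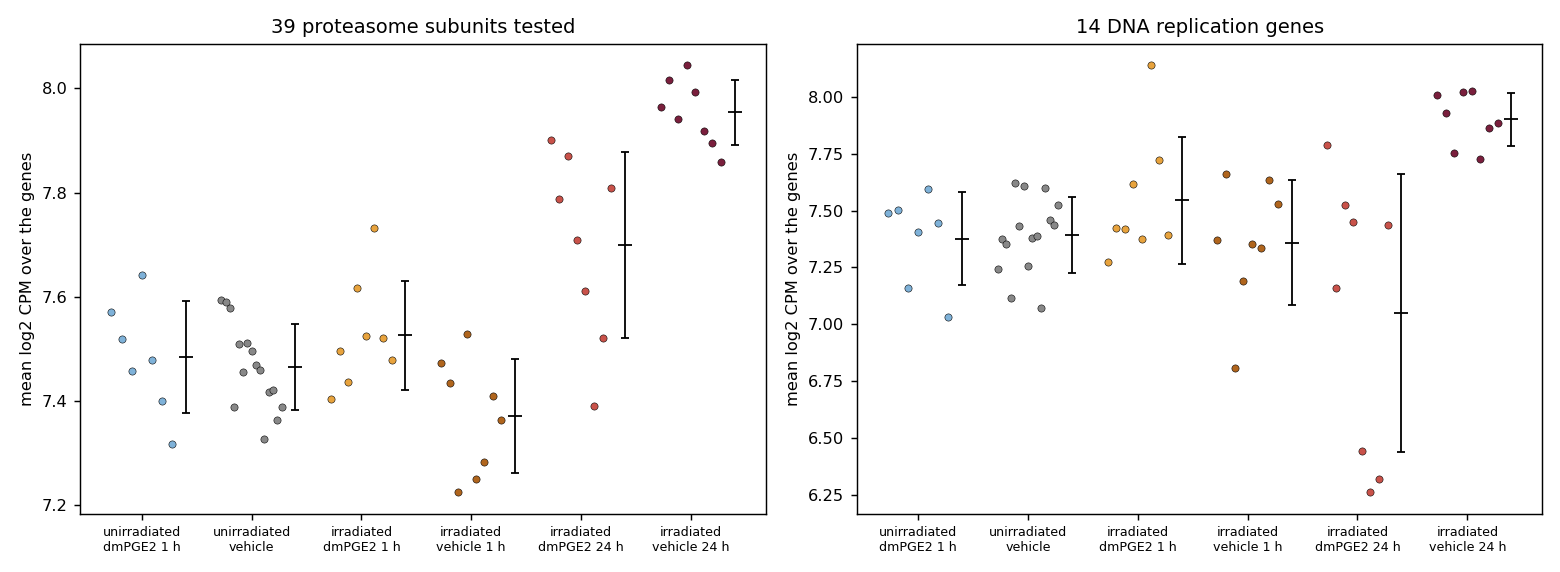
Mean log2 CPM per library (points; bars are the group mean and SD) over the 39 tested subunits (left) and 14 DNA replication genes (right) in the 6 groups. Irradiated vehicle libraries at 24 h sit at 7.86 to 8.04 for the subunits, and 3 irradiated dmPGE2 libraries at 24 h are lowest of their group in both panels.

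At 1 h dmPGE2 in irradiated HSC raised 8 of 39 subunits and lowered 0, where 7.04% of all genes were higher, with a median of 0.18 (0.01 for all genes). This comparison shares its 8 vehicle libraries with radiation at 1 h, so the opposite signs of their values are not independent. All groups overlapped. Psma7 had 340 to 502 CPM (median 384) in irradiated dmPGE2 HSC at 1 h and 284 to 362 CPM (median 322) in irradiated vehicle HSC at 1 h, and its log2 fold change was 0.28 (SE 0.10, adjusted p = 0.0357). Psma3 had 232 to 297 CPM (median 248) with dmPGE2 and 185 to 251 CPM (median 205) with vehicle, and 0.27 (SE 0.08, adjusted p = 0.0203). Psmd13 (0.26, SE 0.09), Psmc4 (0.26, SE 0.09), Psmb7 (0.25, SE 0.08), Psmd9 (0.23, SE 0.08), Psmc1 (0.22, SE 0.07) and Psmc2 (0.21, SE 0.06) were the others called. Psmb5 (0.20, SE 0.08), Psmb6 (0.13, SE 0.07), Psmd14 (0.10, SE 0.10), Psmd11 (0.17, SE 0.07), Psme1 (0.12, SE 0.08), Psme2 (0.28, SE 0.10), Psme3 (0.11, SE 0.10) and Psme4 (-0.11, SE 0.15) were not. With the 2 groups fitted alone 5 were called, where 998 of 13109 genes were higher. By DESeq2 15 were, where 1187 of 14320 genes were higher.

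The dmPGE2 effect at 24 h minus that at 1 h in irradiated HSC was lower than 0 in 31 of 39 subunits, where 12.6% of all genes were, with a median of -0.42 (0.05 for all genes). These 2 effects share no libraries. Psma7 had the largest difference at -0.71 (SE 0.14, adjusted p = 9.31e-05), then Psme2 at -0.66 (SE 0.14), Psmd14 at -0.64 (SE 0.13), Psmb7 at -0.63 (SE 0.11) and Psma3 at -0.62 (SE 0.12). Psmb5 had -0.39 (SE 0.11) and Psmb6 -0.33 (SE 0.09). Not called were Psmc6, Psmd2, Psmd4, the chaperones Psmd5, Psmd9 and Psmd10, Psma8 and Psme4. Without dmPGE2 libraries 5 to 7 of 24 h, 20 were lower, where 8.64% of all genes were, and the median was -0.31. The pathway's smaller lists gave 3 of 3 immunoproteasome genes and 4 of 5 assembly chaperones lower, and without those libraries 3 of 3 and 1 of 5 (Pomp).

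**Figure D4:**
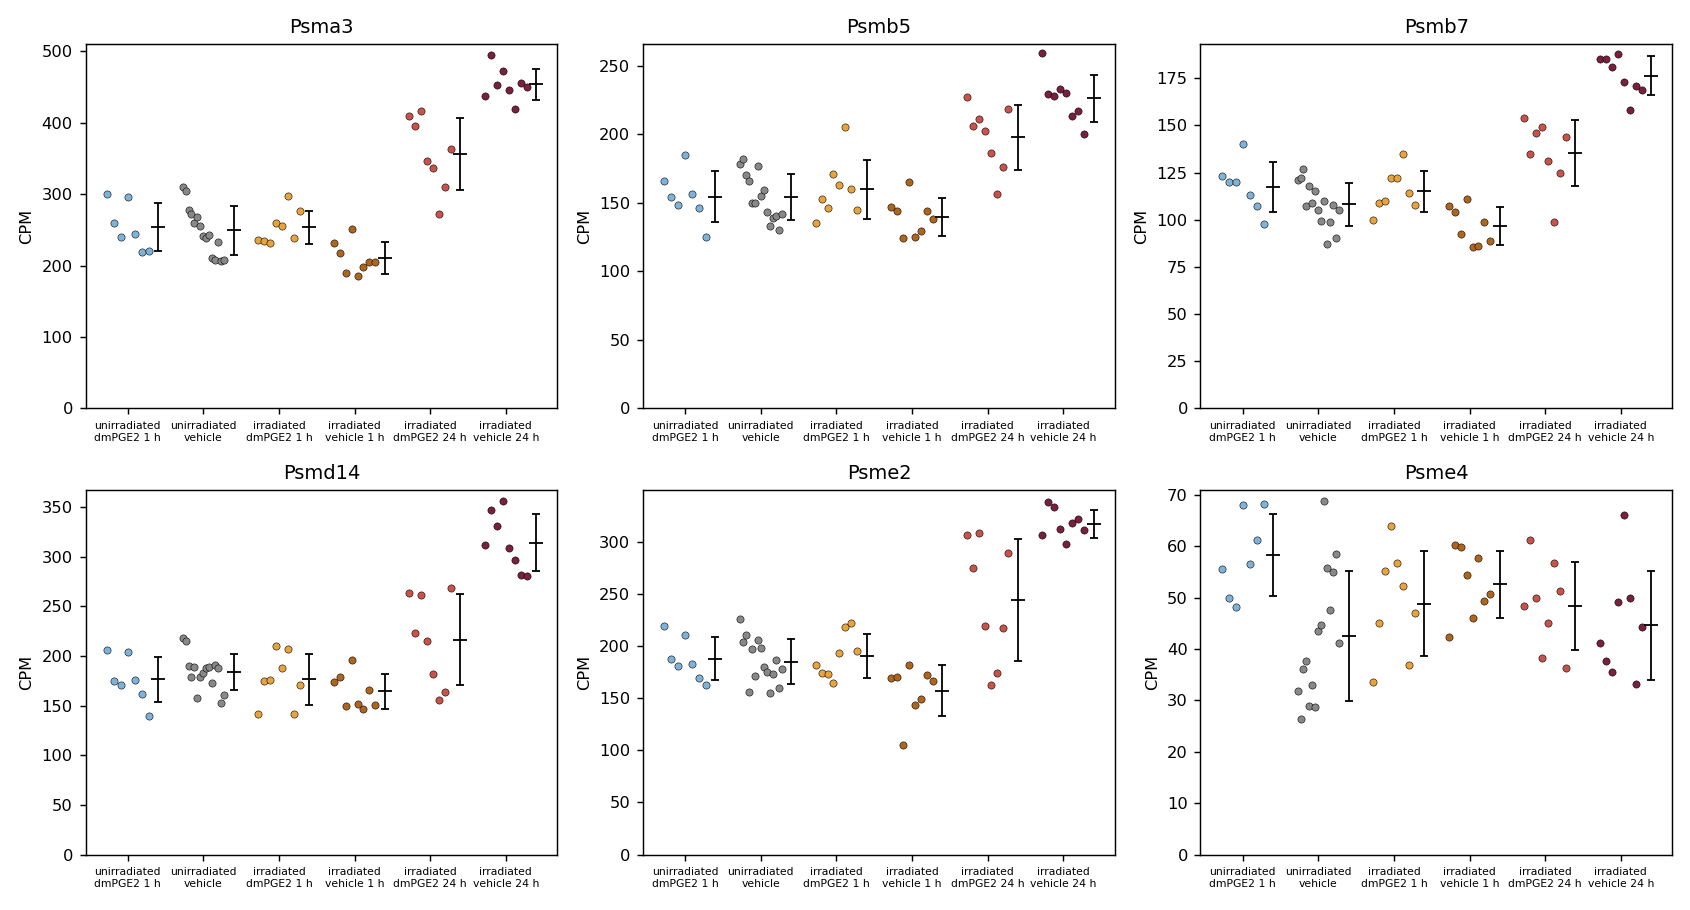
CPM per library (points; bars are the group mean and SD) of Psma3, Psmb5, Psmb7, Psmd14, Psme2 and Psme4 in the 6 groups; each y axis starts at 0. Psma3 and Psmd14 are highest in irradiated vehicle HSC at 24 h (420 to 495 and 280 to 356 CPM) and between that and the unirradiated level with dmPGE2 at 24 h, and Psme4 overlaps in all groups.

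For the other pathway genes, dmPGE2 in irradiated HSC at 24 h lowered 3 of 3 immunoproteasome genes (Psmb9 -0.54, Psmb8 -0.31, Psmb10 -0.30), 3 of 5 assembly chaperones (Psmg3 -0.34, Pomp -0.30, Psmg1 -0.26) and 4 of 9 associated genes (Usp14 -0.48, Shfm1 -0.42, Uchl5 -0.29, Txnl1 -0.26). Without dmPGE2 libraries 5 to 7 the calls were 1 of 3 (Psmb9), 0 of 5 and 1 of 9 (Usp14). With these 2 groups fitted alone they were 2 of 3 (Psmb8 and Psmb9), 1 of 5 (Pomp) and 2 of 9 (Shfm1 and Usp14). At 1 h dmPGE2 in irradiated HSC raised 2 assembly chaperones (Psmg4 0.37, Pomp 0.26), and with its 2 groups fitted alone 1 (Pomp).

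Without radiation 2 of 39 subunits were called higher with dmPGE2 at 1 h, where 5.28% of all genes were. That share is near the background, and the median was 0.02 (0.00 for all genes). Psme4 had 48.2 to 68.2 CPM (median 56.6) in unirradiated dmPGE2 HSC and 26.3 to 68.8 CPM (median 41.2) in unirradiated vehicle HSC, and its log2 fold change was 0.45 (SE 0.14, adjusted p = 0.0223). Against the 8 vehicle columns S42 to S70 alone it was 0.17 (SE 0.13, adjusted p = 0.613). The ATPase gene Psmc1 had 190 to 243 CPM (median 227) with dmPGE2 and 166 to 202 CPM (median 192) with vehicle, and 0.21 (SE 0.07, adjusted p = 0.0356). With same-tag columns summed 0 were called. Against the 8 columns S42 to S70 alone 1 was called (Psmd8), where 513 of 14320 genes were higher, and neither Psme4 nor Psmc1 was. Psmb5 (0.00), Psmb6 (-0.01), Psmb7 (0.11), Psmd14 (-0.06), Psmd11 (0.09), Psme1 (-0.02), Psme2 (0.02) and Psme3 (0.09) had adjusted p of 0.374 or more. Of the pathway's associated genes, Psmf1 had -0.20 (SE 0.07), and was not called against those 8 columns alone or with same-tag columns summed.

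The dmPGE2 effect at 1 h in irradiated minus that in unirradiated HSC was called in 0 of 39 subunits by edgeR and 0 by DESeq2. By edgeR 2.97% of all genes were called. An unadjusted p below 0.05 was found by edgeR in 11 subunits and in 1890 of 14320 genes, and the member median was 0.15. Under dmPGE2 at 1 h, irradiated against unirradiated HSC gave 0 calls by edgeR, DESeq2 and voom, where 0.377% of all genes were called by edgeR. An unadjusted p below 0.05 was found by edgeR in 2 subunits and in 700 of 14320 genes, which is near the background. The member median was 0.05.

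Set against unirradiated vehicle HSC, irradiated dmPGE2 HSC at 24 h had 26 subunits higher and 0 lower, where 19.0% of all genes were higher, with a median of 0.26 (-0.02 for all genes). Psma3 had 273 to 417 CPM (median 354) in irradiated dmPGE2 HSC at 24 h and 207 to 310 CPM (median 243) in unirradiated vehicle HSC, which overlapped, and its log2 fold change was 0.52 (SE 0.07, adjusted p = 8.01e-08). Psmb3 followed with 0.47 (SE 0.07), Psma4 with 0.44 (SE 0.07), Psmd8 with 0.43 (SE 0.06) and Psmb1 with 0.40 (SE 0.07). All 7 tested beta genes were called. The same contrast at 1 h gave 4 higher, where 9.55% of all genes were, Psme3 (0.25), Psmc1 (0.23), Psmc2 (0.18) and Psmd8 (0.17). That share is near the background. With same-tag columns summed it gave 0. Against the 8 columns S42 to S70 alone it gave 6, where 1051 of 14320 genes were higher. Within irradiated dmPGE2 HSC, 20 subunits were higher at 24 h than at 1 h, where 18.1% of all genes were, with a median of 0.19. With the difference between the unirradiated column ranges subtracted, 1 was called, where 1122 of 14320 genes were higher, and the median was 0.08. That 1 was Psme4, which was not among the 20, so 0 of the 20 kept the call.

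Genes of the transcription control of the proteasome followed another course. Of 7 tested, radiation at 1 h raised 6, where 8.65% of all genes were higher: Maff (2.21), Nfe2l2 (1.52), Mafk (0.53), Nfe2l1 (0.45), Ddi2, the protease that activates Nfe2l1 (0.43), and Mafg (0.28). Nfe2l2, the oxidative stress relative of Nfe2l1, had 290 to 472 CPM (median 367) in irradiated vehicle HSC at 1 h and 111 to 155 CPM (median 131) in unirradiated vehicle HSC, without overlap. Nfe2l1 had 110 to 195 CPM (median 162) in irradiated and 75.8 to 147 CPM (median 120) in unirradiated HSC, with overlap. Against the 8 columns S42 to S70 alone 4 were called (Maff, Mafg, Mafk and Nfe2l2), without Nfe2l1 and Ddi2. At 24 h, when the subunits were high, 3 of the 7 were lower, where 26.5% of all genes were, and 1 was higher: Nfe2l1 had 57.7 to 92.7 CPM (median 77.2) in irradiated vehicle HSC and -0.64 (SE 0.11, adjusted p = 1.94e-06) against unirradiated HSC, Maff had -0.58 and Mafk -0.28, while Nfe2l2 had 159 to 194 CPM and 0.46 (SE 0.08, adjusted p = 1.65e-06). Levels of these transcripts do not measure the processed, active proteins.

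dmPGE2 in irradiated HSC changed the same genes in other ways at each time. At each time this comparison shares its 8 vehicle libraries with the one of radiation, so opposite signs are not independent. At 1 h Nfe2l2 had 117 to 191 CPM (median 140) with dmPGE2 and 290 to 472 CPM with vehicle, and its log2 fold change was -1.31 (SE 0.09, adjusted p = 3.13e-17) without overlap, and Mafk rose by 0.44 (SE 0.10). At 24 h Nfe2l1 (0.54, SE 0.12), Nfe2l2 (0.39, SE 0.09) and Mafk (0.39, SE 0.10) rose, and without dmPGE2 libraries 5 to 7 only Nfe2l1 of these 3 was called. At 1 h without radiation Maff (1.89, SE 0.14), Mafk (0.59, SE 0.09) and Nfe2l1 (0.35, SE 0.11) rose, the last not called against the 8 columns S42 to S70 alone.

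**Figure D5:**
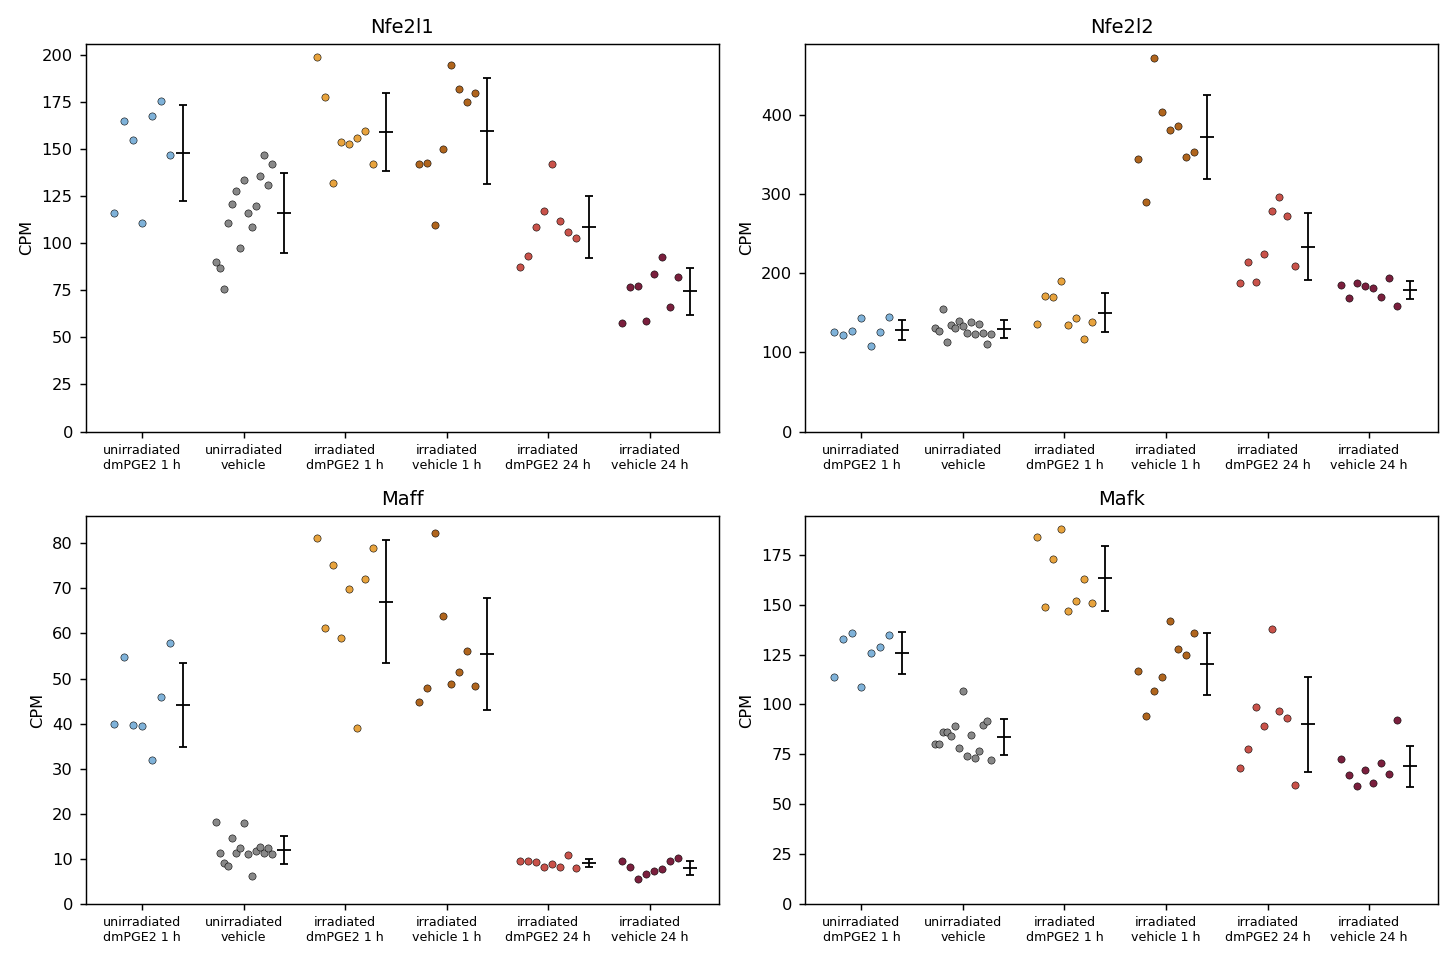
CPM per library (points; bars are the group mean and SD) of Nfe2l1, Nfe2l2, Maff and Mafk in the 6 groups; each y axis starts at 0. Nfe2l2 is highest in irradiated vehicle HSC at 1 h (290 to 472 CPM), and Nfe2l1 has its lowest median in irradiated vehicle HSC at 24 h (77.2 CPM).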

How the data were processed

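RNA of sorted HSC was copied with SMART-Seq v4 and made into Nextera XT libraries, per the labels' protocols, a chemistry that keeps neither strand nor molecule identity. The submitters' processing notes name STAR 2.5.2b, mm10 and featureCounts of Subread 1.5.1. The authors deposited raw whole-number counts by gene, unscaled, for 54 libraries and 24421 rows, 4 of them under 2 repeated names. Column names give part of a group; the rest follows from the number of samples per group in the labels. The members and lists were chosen with earlier results of these data known. Genes were filtered with filterByExpr of edgeR 4.0.16 (count minimum 10), scaled by TMM and tested with its robust quasi-likelihood test in R 4.3.3, with 1 mean per group, 54 libraries and 48 residual degrees of freedom. Adjustment was by Benjamini-Hochberg over all 14320 genes. The SE is the log2 fold change over the square root of F. Log2 CPM use a prior count of 3. Named are, per comparison, the 5 called members that moved most, and Psmb5, Psmb6, Psmb7, Psmd11, Psmd14 and Psme1 to Psme4 in the main ones. Alternatives were DESeq2 1.42.0, RLE scaling, other filters, voom of limma 3.58.1, left-out libraries and a replicate block; those with the unirradiated columns summed or split, and without libraries 5 to 7 alone, were chosen after seeing the data. Counts over the lists of shuttle and ubiquitin genes are not reported here. P values measure the spread between libraries. The scripts were tested on simulated data.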

Additional observations from a re-analysis of the deposited data

Results flagged for a closer look

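The dmPGE2 effect in irradiated HSC differed between 24 h and 1 h, by an interaction term, in 31 of 39 subunits, all lower, where 12.6% of all genes were lower. Without dmPGE2 libraries 5 to 7 of 24 h it did so in 20, where 8.64% of all genes were lower. The largest differences of log2 fold changes were -0.71 in Psma7, -0.66 in Psme2, -0.64 in Psmd14, -0.63 in Psmb7 and -0.62 in Psma3.

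A single library lay far from the rest of its group in 4 of 75 sets of values looked at (14 subunits and the member mean, in 5 groups each), and chance gives about 1 in 20. In irradiated dmPGE2 HSC at 1 h, library 6 was highest both for Psma2 at 351 CPM and for Psmd11 at 211 CPM. It also had the highest mean log2 CPM of its group for the members (7.732) and the replication genes (8.139). In irradiated vehicle HSC at 1 h, library 3 was lowest both for Psme1 at 233 CPM and for Psme3 at 236 CPM. It also had the lowest mean log2 CPM of its group for the members (7.225) and the replication genes (6.807), and dendritic markers at 173.5 CPM. The flags thus fell on 1 library in each group, and the 1 h comparisons were not refitted without them.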

How the results depend on the processing

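Of 228 recomputed counts and medians, 204 stayed within 1.5 times the count or 1 SD between libraries of the median, and of 430 recomputed values of the called members that moved most (up to 5 per comparison) 380 kept the call, 50 lost it and 0 changed sign. Members that were not called are not in that number: with unirradiated columns of the same number range Psmb6 for radiation at 1 h had 0.05, against -0.04 with all columns, Psme1 for dmPGE2 without radiation 0.03, against -0.02, and Psme4 for radiation at 24 h gained a call (0.49, against 0.07). At an adjusted p below 0.01, radiation at 1 h gave 0 members, dmPGE2 without radiation 0, dmPGE2 in irradiated HSC at 1 h 0, and irradiated dmPGE2 against unirradiated vehicle HSC at 1 h 2. Over all 14320 genes these were 587 lower, 468 higher, 541 higher and 900 higher, so each member count is near or below the background. With only the groups compared, the counts were 7 lower for radiation at 1 h, 5 higher for dmPGE2 in irradiated HSC at 1 h, 14 lower for dmPGE2 at 24 h and 13 higher for dmPGE2 libraries over time. Over all genes these were 1399 of 13475, 998 of 13109, 768 of 12876 and 1942 of 13092. For dmPGE2 in irradiated HSC at 1 h, DESeq2 gave 15 and no filter 5, where 1187 of 14320 and 979 of 18951 genes were higher. Voom gave 1 for dmPGE2 by radiation, where 330 of 14320 genes were higher. With unirradiated columns of one tag summed, radiation at 1 h gave 1, dmPGE2 without radiation 0 and irradiated dmPGE2 at 1 h 0 (712 lower, 486 higher and 917 higher of 14196 genes). With columns of the same number range, these were 0, 1 and 6 (the last within the limit), and the median for radiation at 24 h was 0.45. With the range difference subtracted, the median over time was 0.47 with vehicle. With dmPGE2 1 member was then called (Psme4), which the main fit did not call. Without libraries 5, 6 and 7, dmPGE2 at 24 h lowered 4 and the difference between times 20. Without library 3 too these were 2 and 20, where 362 and 1189 of 14714 genes were lower. Between groups the main fit paired no samples by tag, because the submitters state no term for replicates. The lowest same-tag correlation was -0.06 to 0.08 per comparison. Tags were still shared in part. For dmPGE2 without radiation 6 of 7 libraries correlated best with their own tag (r up to 0.40, at most 0.16 with other tags). For dmPGE2 in irradiated HSC at 1 h 6 of 8 did (up to 0.35, at most 0.12 with other tags). For radiation with vehicle at 1 h and dmPGE2 at 24 h 3 of 8 did. Within unirradiated vehicle HSC all 7 same-tag pairs correlated, at 0.20 to 0.46. The replicate block gave 13 for dmPGE2 at 1 h, 30 at 24 h and 33 for the difference between times, and changed no other count by over 1.5 times. Over all genes these were 1293, 2102 and 2251 of 14320 in the same direction. It could not be fitted for the comparisons of radiation at 24 h or over time. The widest SEs for radiation at 24 h were those of Psma8 (0.17) and Psme4 (0.14).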
